A study of Mus musculus with 18 samples.

Results

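The genes described here are the class II odorant receptors of the large cluster on mouse chromosome 2, read in RNA of nasal mucosa. They were taken from the deposited count table as the protein-coding genes with an Olfr number on chromosome 2 whose start lies between 85 and 91 Mb, a rule that uses no measured value. It found 227 genes, out of 1135 protein-coding odorant receptor genes and 54532 genes in all. The first starts at 85330779 and the last ends at 90403897 (mm10), with 79 genes on the plus strand and 148 on the minus strand. The class given in the rule was checked against the MOR names, an older naming by sequence family, in RefSeq. The family was read as the number before a hyphen. Members without a MOR name, or with one lacking the hyphen, were counted in no family. Of 218 members with a MOR family, 217 carry a family number of class II, and Olfr1105 is named MOR0-6P. Of the 227 genes, 10 have the ending -ps of a pseudogene in their symbol although the count table classes them as protein-coding.

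Odorant receptors are G protein-coupled receptors in the cilia of olfactory sensory neurons, where they signal through the olfactory G protein, adenylyl cyclase and a cyclic nucleotide-gated channel. A mature neuron transcribes a single allele of a single receptor gene, so in a tissue sample the transcript level of a receptor depends on how many neurons have chosen it and on how much RNA each of them holds. Choice works through enhancers spread over the receptor clusters, bound by Lhx2, Ldb1 and Ebf factors. Class II receptors are the tetrapod class and make up most of the family, while class I receptors sit in a cluster of their own on chromosome 7.

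The study placed 18 libraries in 3 groups of 6, labelled CON, CRS and C10. CRS stands for a mouse model of chronic rhinosinusitis made with papain, a protease allergen, given into the nose as 20 µg in 20 µL of buffered saline from day 0 to day 2 and from day 7 to day 11. C10 is a compound given once daily into both nostrils at 10 mg/mL, 10 µL per side, for 10 days from the first papain dose; the series title speaks of an inhibitor of APE1, an enzyme of DNA repair and redox control. The protocol gives this compound to mice of the papain model, so the C10 group was read as papain plus C10. The sources used here state neither what the CON mice received nor the strain, sex, age and number of mice behind a library. Where libraries are not separate animals, the p-values measure only the spread between these samples.

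Library totals ran from 15883573 to 18433866 counts, so that 3 counts were worth 0.163 to 0.193 CPM (counts relative to library size, scaled by TMM factors). The labelled tissue held olfactory neurons in every library: Omp, the marker of mature olfactory neurons, lay between 1241 and 3490 CPM. Trpc2, the channel of vomeronasal neurons, was at 0 in all CRS and C10 libraries and at most 0.0575 CPM in CON. The other 3 genes of the vomeronasal list were measured, the receptor gene Vmn2r1 at 0 to 2.62 CPM (highest in C10 6) and the G protein genes Gnao1 and Gnai2, which are not limited to these neurons, at 97.5 to 214 and 196 to 423.0 CPM, so vomeronasal tissue is not shown to be absent. An earlier look at these data had found CRS 2 and CRS 5 apart from the other libraries, and results below are given without them where that matters. These 2 libraries also had the highest Omp level of their group and its highest summed level of the cluster's receptors, 533 and 501 CPM. Leaving them out therefore lowers the CRS level of these receptors by construction. High libraries of CON and C10 were kept in that setting. Comparing all genes, CRS against CON gave 1 called gene with edgeR, 179 with DESeq2 and 994 when CRS 1 was left out. In a bulk sample fewer neurons of a kind and less RNA per neuron cannot be told apart.

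Some members of this cluster are close copies of each other, while others are distant, such as Olfr988 and Olfr1167 at 60.0% identity. The following stretches show what separates the members on which the results turn from their nearest relatives. Coding sequence has a median length of 936 bases (903 to 1038), and 220 of the 227 genes carry it in 1 block. The median identity of a member's coding sequence to its nearest relative in the cluster was 88.1%. Each stretch is 90 bases of coding sequence from GENCODE M21 (mm10), 5′ to 3′ on the coding strand, with the positions that differ within the set in capitals. The first set holds Olfr1167, the only member called with edgeR on all 18 libraries without a covariate, with the 2 receptors nearest to it in sequence, at coding bases 540 to 629 (chr2:88124355-88124444, chr2:88149389-88149478 and chr2:88224402-88224491, all on the minus strand). These 3 differed at 14 positions of the stretch and at 66 of 948 coding bases in all.
Olfr1166: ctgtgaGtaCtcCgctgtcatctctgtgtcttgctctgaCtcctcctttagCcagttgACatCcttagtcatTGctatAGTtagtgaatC
Olfr1167: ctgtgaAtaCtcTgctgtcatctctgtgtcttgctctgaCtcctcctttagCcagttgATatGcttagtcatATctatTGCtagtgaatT
Olfr1170: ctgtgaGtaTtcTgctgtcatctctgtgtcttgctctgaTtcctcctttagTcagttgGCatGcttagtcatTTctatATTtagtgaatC

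The second set pairs Olfr988, which showed the largest fold differences of the cluster, with its neighbour Olfr987, at coding bases 254 to 343 (chr2:85331554-85331643 for Olfr987 and chr2:85353582-85353671 for Olfr988, minus strand). They differed at 10 positions of the stretch and at 29 of 927 coding bases.
Olfr987: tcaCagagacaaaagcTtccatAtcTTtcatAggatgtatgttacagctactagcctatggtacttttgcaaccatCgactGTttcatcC
Olfr988: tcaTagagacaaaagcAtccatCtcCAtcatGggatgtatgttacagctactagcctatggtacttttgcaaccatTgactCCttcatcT
The third set is the most alike pair of tested members, Olfr1057 and Olfr1062, at coding bases 250 to 339 (chr2:86375072-86375161 and chr2:86423336-86423425, minus strand). They differed at 7 positions of the stretch and at 17 of 945 coding bases.
Olfr1057: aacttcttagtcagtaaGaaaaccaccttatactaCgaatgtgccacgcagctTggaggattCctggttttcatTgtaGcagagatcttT
Olfr1062: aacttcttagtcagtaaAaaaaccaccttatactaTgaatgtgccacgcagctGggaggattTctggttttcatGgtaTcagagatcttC
Reads that carry none of the differing positions fit both copies. Over the whole transcripts, the median share of 50-base stretches that occur in the transcripts of no other GENCODE gene was 95.2%, and 15 tested members had under 80%. Olfr988 had 66.2%, Olfr1170 76.5%, Olfr1166 78.9%, Olfr1062 81.5% and Olfr1167 83.1%, and their counts are uncertain to that extent, since how the authors treated reads that fit several genes is not stated in the sources at hand.

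Most receptors of the cluster were measured at low levels. The 227 genes together had 122926 counts over the 18 libraries, 11 genes had 0 counts in every library, and 42 never had more than 3 counts in a library. After the filter on low counts, 112 genes could be tested, and these held 96.1% of the cluster's counts. The counts were unevenly spread, with 22 genes holding 50% of them and the 10 highest 28.9%. On the FPKM scale, which divides by gene length and allows comparison between genes, the median gene had a mean of 0.166, the median tested gene 0.742, and 46 genes reached at least 1.

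Olfr1176, a member of the MOR174 family, had the highest mean level at 4.97 FPKM. It was followed by Olfr994 (4.69 FPKM), Olfr1025-ps1 (4.42 FPKM), Olfr1046 (4.26 FPKM) and Olfr1032 (4.07 FPKM). Olfr1044 (3.73 FPKM), Olfr1019 (3.17 FPKM), Olfr1020 (3.16 FPKM), Olfr152 (3.06 FPKM) and Olfr1154 (2.98 FPKM) completed the 10 highest. Olfr1019 is known as a receptor for trimethylthiazoline, a component of fox odour, and Olfr73, also called mOR-EG, as a receptor for eugenol; the latter ranked 28 with 1.87 FPKM. The first 2 of this order did not differ beyond their spread: Olfr1176 had 4.39 ± 1.80 FPKM (SD, n = 6) in CON and Olfr994 had 3.90 ± 1.71 FPKM (SD, n = 6). The order was much the same in the 3 groups, with Spearman's rho across the 227 genes of 0.983 between the mean FPKM of CON and CRS, 0.976 between CON and C10, and 0.975 between CRS and C10. That is a description across genes, which share libraries and gene lengths and are not replicates.

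**Figure D1:**
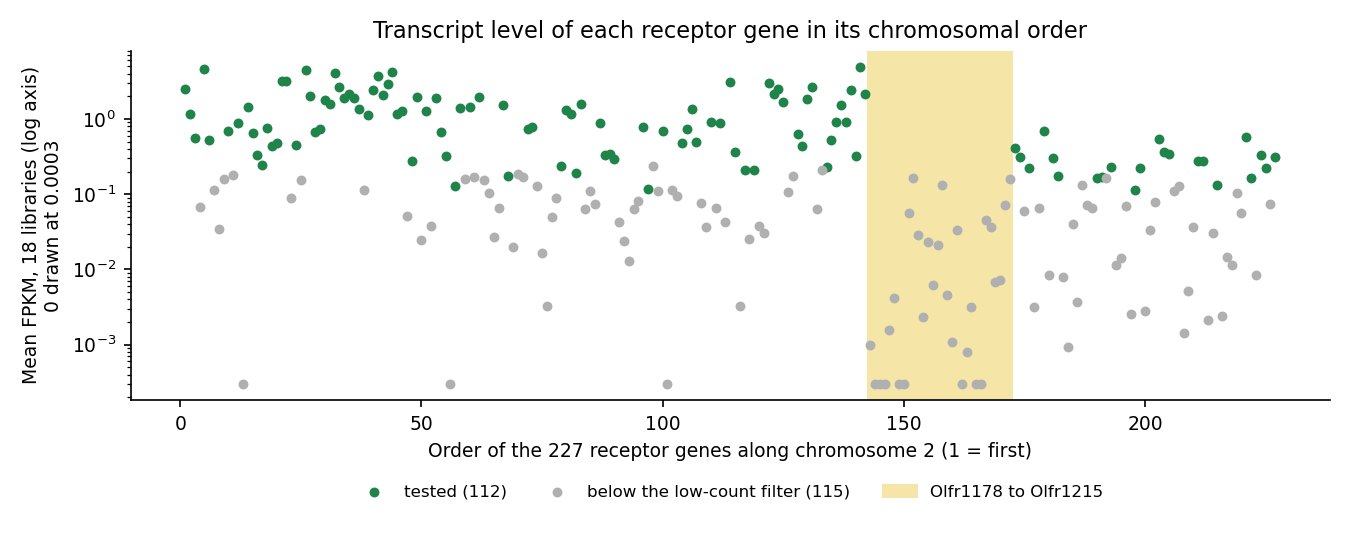
Mean FPKM over 18 libraries (log axis, 0 drawn at 0.0003) of each of the 227 receptor genes against its order along chromosome 2, tested genes in green and genes below the low-count filter in grey. High and low genes alternate along the first part of the cluster, and the shaded run from Olfr1178 to Olfr1215 holds 30 neighbouring genes of which 0 passed the filter.

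Levels changed along the cluster. The 31 genes between 85 and 86 Mb had a median of 0.644 FPKM and the 49 between 86 and 87 Mb one of 0.680 FPKM. From 87 Mb the medians per megabase were 0.194, 0.0313, 0.0795 and 0.105 FPKM, and the part before 87 Mb held 23.1% and 33.6% of the cluster's counts in its 2 megabases. The bin from 88 to 89 Mb joined opposite ends of the range: it holds Olfr1176, the highest gene of all, and a run of 30 consecutive genes from Olfr1178 to Olfr1215 (chr2:88387062-89006973) that all fell below the filter. Those 30 genes had 740 counts in all over 18 libraries, 8 had 0, and the highest, Olfr1215, had 130. Their transcripts were not unusually alike, with a median of 96.75% unique 50-base stretches (lowest 74%) against 95.2% over the cluster. The run is bounded by tested genes on both sides, Olfr1177-ps before it and Olfr1216 after it.

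Receptor families met this run in different ways. MOR225 has 11 members in the cluster and MOR230 has 10, all of them in the run, and 0 of either were tested, with 258 and 135 counts in all over the 18 libraries. MOR233 has 4 of 17 members in the run and 6 tested outside it, and MOR232 has 2 of 8 in the run and 2 tested outside it. Olfr1220, not tested and named MOR2335 without a hyphen, was not counted in MOR233. MOR174, with 15 members just before the run, had 12 tested and 22157 counts. Olfr1173, Olfr1174-ps and Olfr1175-ps lie among its members and were tested, but have no MOR name and were not counted. A count of 0 in every library sets a limit of 3 counts per library, 0.163 to 0.193 CPM, and covers counting error only, so the genes at 0 were not detectable at this depth and are not shown to be silent.

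Libraries of the same group differed widely in the level of each receptor, and part of that spread was shared. The median coefficient of variation (CV) of CPM within groups over the 112 tested genes was 44.9%, against 17.1% that counting alone would give. When each gene was expressed as a share of all odorant receptor counts of its library, the median CV was 31.9%, and it was lower than the CV of CPM in 98 of 112 genes. Among the 20 genes with a mean of at least 100 counts, where counting error is small, the 2 values were 40.0% and 19.4%, beside 8.3% from counting.

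The genes of widest spread were low ones. Olfr1166 had a biological CV of 0.81, and its level ran from 0 CPM in CRS 4 to 1.27 CPM in C10 5. Olfr1240 (0.79), Olfr1113 (0.74), Olfr1014 (0.69) and Olfr1123 (0.68) came next. Olfr1014 overlaps the protein-coding Olfr1013, so its reads cannot be fully told apart. The steadiest were Olfr1020 (0.29), Olfr1033 (0.30) and Olfr992 (0.30). Olfr1020 had 4.23 CPM at its lowest in CON, a median of 7.49 and 10.6 at its highest.

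**Figure D2:**
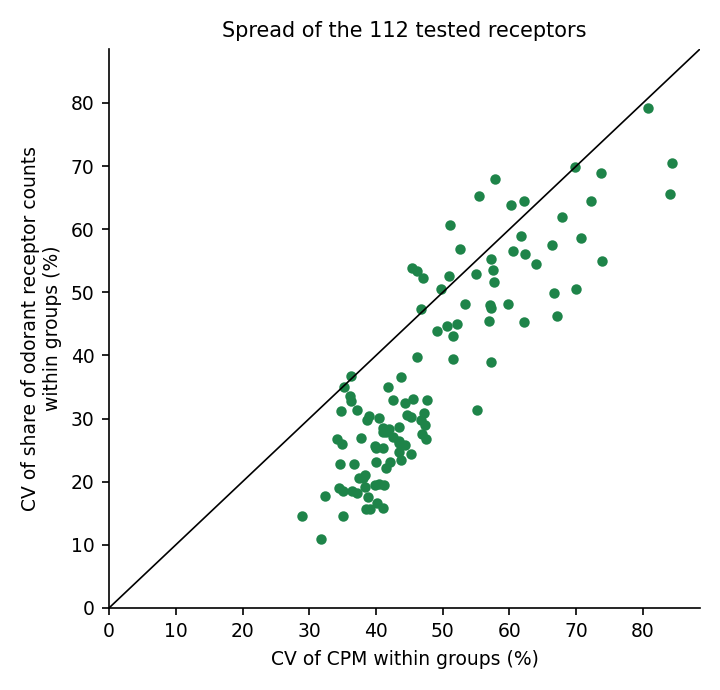
Coefficient of variation within groups of CPM (x axis, %) against that of the share of odorant receptor counts (y axis, %), 1 point per tested receptor, with the line of equality. In 98 of 112 genes the point lies below the line.

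Summed over all 227 genes, the cluster's level overlapped between the groups. CON libraries had 156 CPM at the lowest, a median of 323 and 476 at the highest, with a mean of 333 ± 113 CPM (SD, n = 6). CRS libraries had 202 CPM at the lowest, a median of 407 and 533 at the highest (387 ± 130 CPM, SD, n = 6). In C10 the range was 338 to 622 CPM with a median of 483 (481 ± 115 CPM, SD, n = 6). The lowest library was CON 5 and the highest C10 6, and the ratio of group means was 1.16 for CRS against CON, 1.24 for C10 against CRS and 1.45 for C10 against CON.

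As a share of all odorant receptor counts the cluster varied little, and the groups overlapped. It made up 16.9 ± 0.505% (SD, n = 6) in CON, 17.4 ± 0.668% (SD, n = 6) in CRS and 17.2 ± 0.269% (SD, n = 6) in C10. All 18 libraries lay between 16.5% and 18.7%, with CON 3 (17.9%) and CRS 4 (18.7%) above the rest of their groups. The cluster's sum thus varied from library to library together with that of the other odorant receptors.

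**Figure D3:**
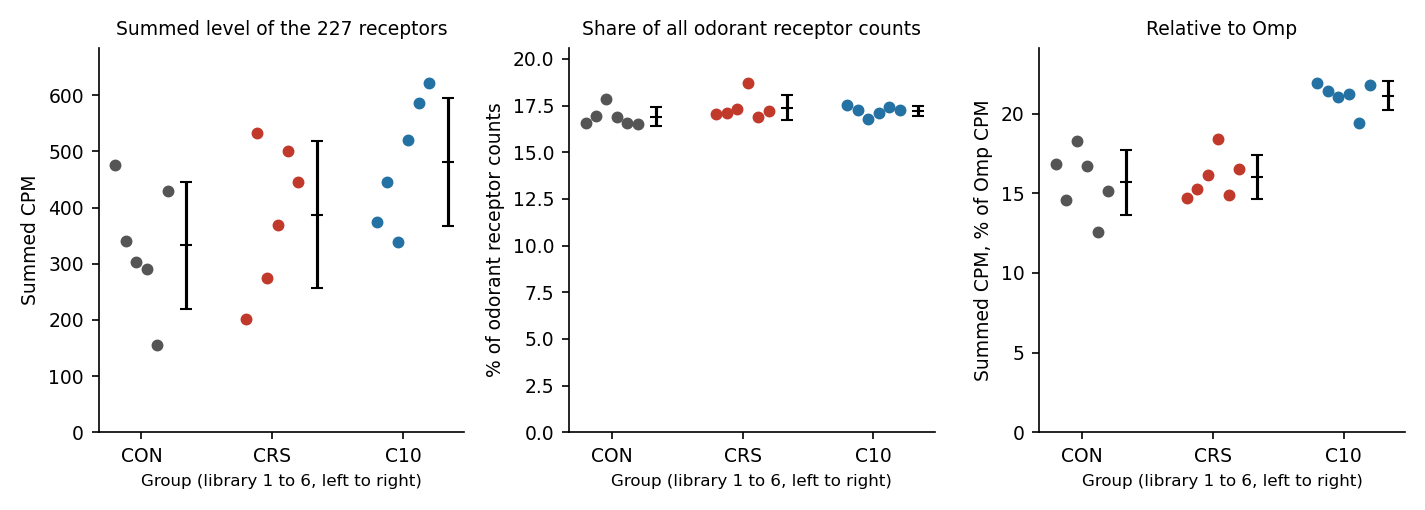
Readings of the cluster in each library of CON, CRS and C10: summed CPM of the 227 genes, their share of all odorant receptor counts (%), and their summed CPM as a percent of Omp CPM; points are libraries 1 to 6 from left to right, and the bar beside them is the mean ± SD. The groups overlap in the first 2 panels, and in the third the 6 C10 libraries (19.4% to 21.9%) lie above the 12 others (12.5% to 18.4%).

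The first comparison, CRS against CON, asks whether the papain model changed these receptors. With edgeR's quasi-likelihood test and Benjamini-Hochberg adjustment, 0 of 112 tested receptors were called, in a table where 0.00547% of all genes tested were called. DESeq2 and limma-voom also called 0 of the 112, where they called 179 and 940 of all 18291 genes. The smallest adjusted p in the cluster was 0.288 with edgeR. At an unadjusted p under 0.05, 5 receptors were higher (4.46% of those tested, against 7.75% of all genes) and 0 were lower, against 6.3% of all genes. The log2 fold changes ran from -1.01 to 1.20 with a median of 0.22, and 92 of 112 were above 0, against 50.8% of all genes. The other 520 odorant receptors tested had a median of 0.20 with 373 above 0, and all genes a median of 0.00. Leaving out CRS 2 and CRS 5, the highest CRS libraries in these receptors, turned the cluster's median to -0.04. That of the other odorant receptors turned to -0.08.

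Olfr1062, chosen as the member of smallest p among those above 0, had 0.0556 CPM at the lowest in CON, a median of 0.262 and 0.655 at the highest. In CRS the values were 0.232, 0.758 and 1.18 CPM. CON 2, CON 3 and CON 5 had at most 3 counts of it, and the groups overlapped (log2 fold change 1.20 ± 0.48 SE, edgeR adjusted p = 0.288). Its twin in sequence, Olfr1057, had medians of 2.00 CPM in CON and 2.08 CPM in CRS. Olfr142 had a median of 0.688 CPM in CON and 1.27 CPM in CRS (0.87 ± 0.38 on the log2 scale, adjusted p = 0.321 with edgeR). Olfr228 had medians of 1.84 and 3.14 CPM (0.74 ± 0.33, edgeR adjusted p = 0.325).

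Among receptors below 0, Olfr988 had a median of 1.26 CPM in CON and 0.465 CPM in CRS. Its range was 0.167 to 3.35 CPM in CON and 0.302 to 1.81 CPM in CRS, so the groups overlapped. The log2 fold change was -1.01 ± 0.56 (edgeR adjusted p = 0.431). Olfr1105 (-0.59 ± 0.48) and Olfr1014 (-0.53 ± 0.63) were further from the threshold.

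The second comparison, C10 against CRS, asks whether the compound changed the receptors in the papain model; it shares the CRS libraries with the first and the C10 libraries with the third. EdgeR called 0 of 112 receptors, where 0.082% of all genes tested were called and 0.0164% were called higher. The smallest adjusted p was 0.064. At an unadjusted p under 0.05, 11 receptors were higher (9.82%, against 5.77% of all genes) and 0 were lower (7.41% of all genes), and among the other odorant receptors the share higher was 9.42%. The median log2 fold change was 0.29 with 84 of 112 above 0, against 51.7% of all genes, and the other odorant receptors had the same median of 0.29 with 407 of 520 above 0. Without CRS 2 and CRS 5, the highest CRS libraries in these receptors, the cluster's median was 0.52. Then 100 of 116 tested receptors were above 0 and 20 were higher at an unadjusted p under 0.05. With limma-voom on all 18 libraries the median was 0.09, with 65 of 112 above 0. Read relative to all odorant receptor counts, the cluster's median was -0.05 with 50 of 112 above 0. DESeq2 called 2 of the 112 receptors, Olfr988 and Olfr1167, where it called 7 of 520 other odorant receptors and 350 of all 18291 genes.

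Olfr988, a MOR203 family receptor at the start of the cluster (chr2:85352428-85363227, minus strand), showed the largest difference. In CRS its lowest, median and highest values were 0.302, 0.465 and 1.81 CPM. In C10 they were 2.58, 3.52 and 9.49 CPM, so every C10 library lay above every CRS library. It was the only tested receptor of the cluster with such a separation in this comparison, a separation that 0.355% of all genes tested showed in that direction. The log2 fold change was 2.82 ± 0.56, that is 7.04-fold, and the adjusted p with edgeR was 0.064, not under the threshold. Over the 30 alternatives the adjusted p lay between 0.000176 and 0.233 and was under 0.05 in 7. These included edgeR with the olfactory neuron covariate (0.00501), without CON 1 (0.0499), without CON 5 (0.0237) and without CRS 6 (0.0261). Its neighbour Olfr987, 96.9% identical in coding sequence, had mean levels of 3.89 ± 1.53 CPM in CRS and 5.17 ± 1.49 CPM in C10 (SD, n = 6).

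Olfr1170 and Olfr1167, 95.5% identical and both of the MOR174 family, were the next by p. Olfr1170 had 2.09, 3.24 and 6.38 CPM in CRS as lowest, median and highest, and 4.86, 7.89 and 9.64 CPM in C10. Its groups overlapped, and the log2 fold change was 1.02 ± 0.32 (edgeR adjusted p = 0.190). Olfr1167 had 1.63, 1.80 and 2.29 CPM in CRS against 2.06, 3.51 and 6.50 CPM in C10 (1.00 ± 0.29, edgeR adjusted p = 0.162). On the other side of 0, Olfr1151 (-0.69 ± 0.50), Olfr1143 (-0.71 ± 0.54) and Olfr1216 (-0.51 ± 0.40) had the smallest p. In Olfr1143 the value rested on CRS 2 (2.54 CPM) and CRS 5 (1.33 CPM), and it was 0.07 without them.

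**Figure D4:**
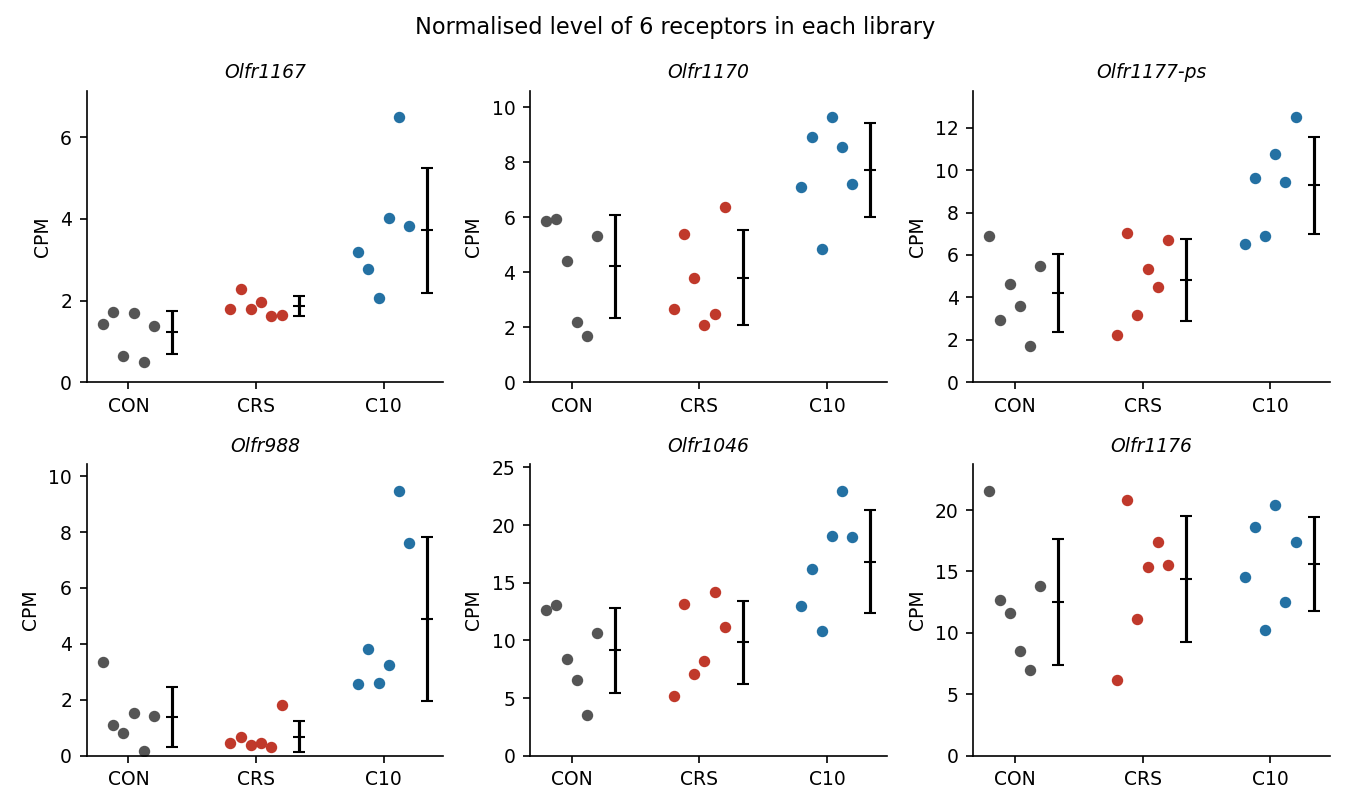
CPM of 6 receptors in each library of CON, CRS and C10 (points, libraries 1 to 6 from left to right) with the mean ± SD beside them. In Olfr1167 the 6 C10 libraries (2.06 to 6.50 CPM) lie above the 6 CON libraries (0.501 to 1.72 CPM), in Olfr988 they lie above the 6 CRS libraries, and in Olfr1176 the 3 groups overlap.

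The third comparison set C10 against CON, mice with papain and compound against the controls. Here 1 of 112 receptors was called by edgeR, higher in C10, where 0.0437% of all genes tested were called higher and 0.159% in either direction. The cluster leaned upward as a whole, with 104 of 112 log2 fold changes above 0 and a median of 0.52. The other odorant receptors did likewise, with 464 of 520 above 0 and a median of 0.50, while all genes had a median of 0.01 with 52.6% above 0. At an unadjusted p under 0.05, 23 receptors were higher (20.5%, against 6.29% of all genes and 17.7% of the other odorant receptors) and 0 were lower, against 6.83% of all genes. Class I receptors had a median of 0.45 over 97 tested genes and the receptors of chromosome 9 one of 0.52 over 85. Whether the cluster differs from these was not tested. Relative to all odorant receptor counts, 57 of 112 genes were above 0 and the median was 0.01. In that setting 0 receptors were called, and also 0 of all 18291 genes.

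Olfr1167 (chr2:88146150-88155193, minus strand, a MOR174 family receptor) was the called gene. In CON it had 0.501 CPM at the lowest, a median of 1.39 and 1.72 at the highest. In CRS the values were 1.63, 1.80 and 2.29 CPM, and in C10 they were 2.06, 3.51 and 6.50 CPM. All 6 C10 libraries lay above all 6 CON libraries. It was the only one of the cluster's 112 tested receptors with that separation, a share near the 0.733% of all genes tested. The opposite separation, every C10 library below every CON library, was seen in 0 of the cluster's tested genes and in 1.08% of all genes. Olfr1167 rose by 1.60 ± 0.30 on the log2 scale, 3.03-fold (edgeR adjusted p = 0.0342). The call held in 14 of 30 alternatives, with adjusted p from 0.000137 to 0.143, and leaving out a single library ended it in 13 of 18 cases (adjusted p = 0.0501 to 0.112): any of the 6 CON libraries, CRS 3 or 6, or any C10 library other than C10 3. With library size set to all odorant receptor counts the log2 fold change was 1.06 ± 0.31 (edgeR adjusted p = 0.143), and 0 of all 18291 genes were called.

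Olfr1177-ps, whose transcript shares no 50-base stretch with another, had 1.72, 4.10 and 6.88 CPM in CON as lowest, median and highest, and 6.50, 9.54 and 12.5 CPM in C10. The groups touched only at their edges, and the log2 fold change was 1.14 ± 0.31 (edgeR adjusted p = 0.139; under 0.05 in 3 of 30 alternatives). Olfr988 had 0.167, 1.26 and 3.35 CPM in CON against 2.58, 3.52 and 9.49 CPM in C10, with only CON 1 inside the range of C10 (1.80 ± 0.53, edgeR adjusted p = 0.171). On the lower side Olfr1246 (-0.43 ± 0.42), Olfr1015 (-0.27 ± 0.41) and Olfr1224-ps1 (-0.30 ± 0.59) had the smallest p. None passed, and Olfr1015 had the opposite sign (0.33) without CON 6, a library at 5.68 CPM where the other CON libraries had 0.834 to 2.16 CPM.

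The 10 receptors of highest level did not pass the test in this comparison. Olfr1046 had 3.51, 9.51 and 13.1 CPM in CON as lowest, median and highest, and 10.8, 17.6 and 23.0 CPM in C10 (0.88 ± 0.29, edgeR adjusted p = 0.215). Olfr1044 had 1.95, 10.4 and 15.97 CPM in CON against 13.3, 16.7 and 20.6 CPM in C10 (0.72 ± 0.36). For Olfr1176, at the top of the order, the values were 6.95, 12.1 and 21.6 CPM in CON and 10.2, 15.96 and 20.4 CPM in C10 (0.32 ± 0.28). Olfr1154 (0.58 ± 0.34), Olfr994 (0.56 ± 0.36), Olfr152 (0.43 ± 0.33), Olfr1020 (0.36 ± 0.24), Olfr1032 (0.36 ± 0.31) and Olfr1025-ps1 (0.33 ± 0.35) lay between. The receptor for the fox odour component, Olfr1019, was close to level with medians of 8.50 CPM in CON and 7.35 CPM in C10 (0.08 ± 0.35). Reading the genes relative to all odorant receptor counts moved the median of all genes by -0.612 and the cluster's median from 0.52 to 0.01. Olfr1176, Olfr1025-ps1, Olfr1032, Olfr1019, Olfr1020 and Olfr152 then lay below 0.

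**Figure D5:**
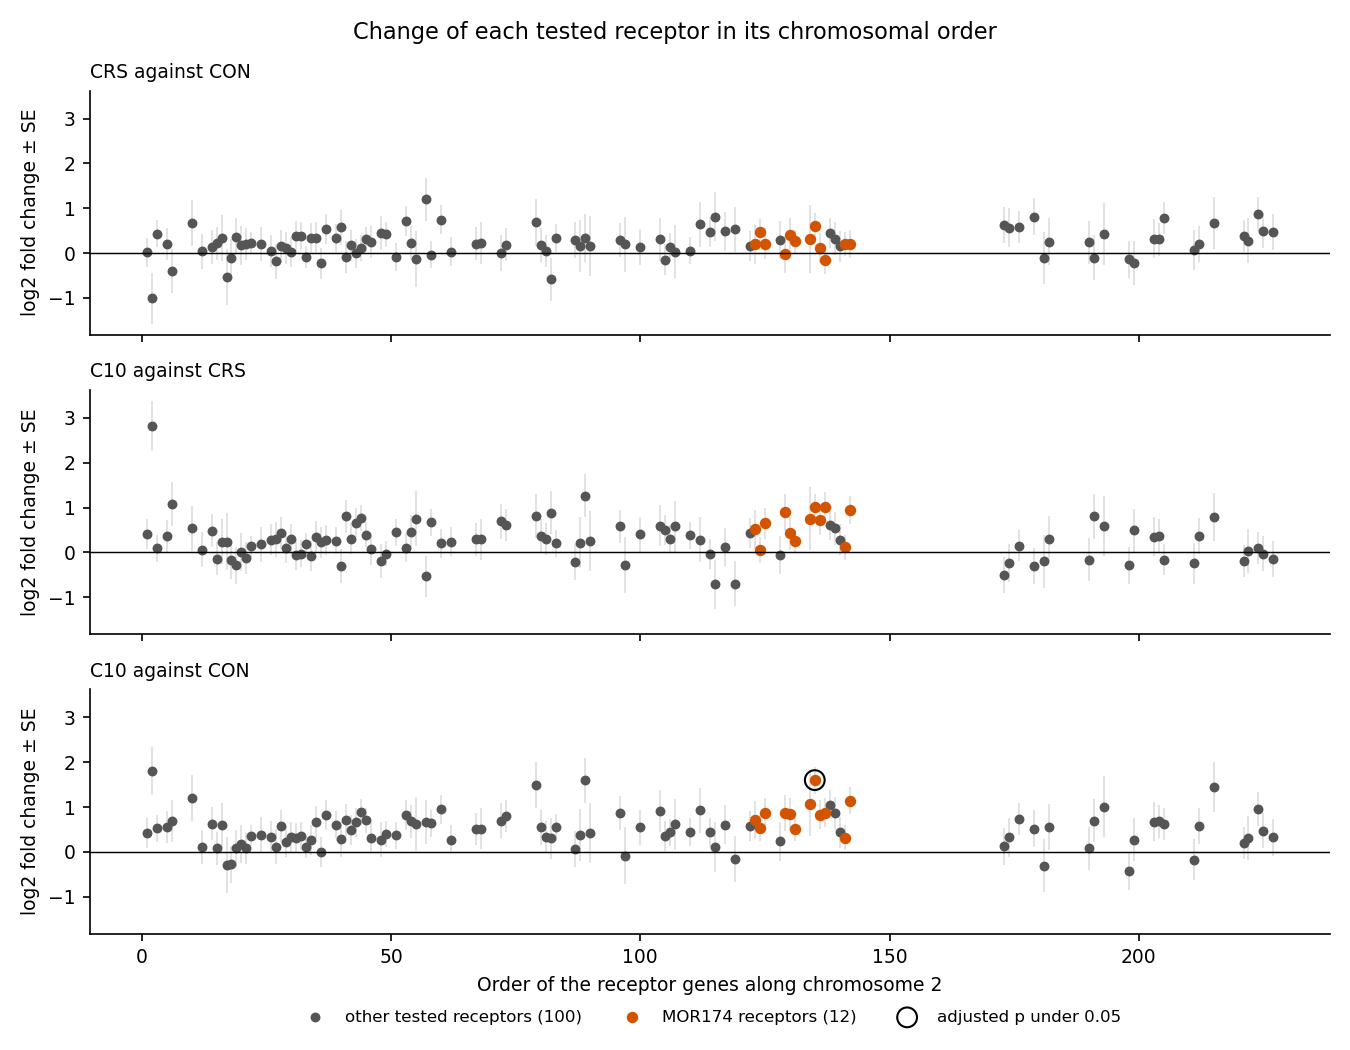
Log2 fold change ± SE of each of the 112 tested receptors against its order along chromosome 2, in the 3 comparisons, with the 12 tested MOR174 receptors in orange and a ring around a receptor with adjusted p under 0.05. In C10 against CON 104 of 112 points lie above 0 and Olfr1167 carries the only ring.

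MOR174 receptors, neighbours between 87941645 and 88346492, hold Olfr1167, Olfr1170 and Olfr1177-ps. The family was singled out after its values were seen, so the following is a description. It leaves out the tested neighbours Olfr1173, Olfr1174-ps and Olfr1175-ps, which have no MOR name. Olfr1173 was 96.9% identical in coding sequence to the member Olfr1168. All 12 tested members had their highest group mean in C10, as did 82 of the 112 tested receptors of the cluster (73.2%). The median log2 fold change was 0.85 in C10 against CON with 12 of 12 above 0, and 0.69 in C10 against CRS with 12 of 12 above 0; these 2 comparisons share the C10 libraries. In CRS against CON the median was 0.21 with 10 of 12 above 0. At an unadjusted p under 0.05, 7 of the 12 were higher in C10 against CON, where 6.29% of all genes, 17.7% of the other odorant receptors and 23 of 112 receptors of the cluster were. Olfr73, the eugenol receptor, had 1.36 ± 0.674 FPKM in CON, 1.81 ± 0.629 in CRS and 2.43 ± 1.33 in C10 (SD, n = 6). Olfr1168, 76.5% unique in 50-base stretches, had 0.700 ± 0.259 FPKM in CON, 0.756 ± 0.298 in CRS and 1.24 ± 0.493 in C10 (SD, n = 6).

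By position the upward lean in C10 against CON was present in each megabase. The medians were 0.33 from 85 Mb, 0.61 from 86 Mb, 0.48 from 87 Mb, 0.86 from 88 Mb, 0.53 from 89 Mb and 0.40 from 90 Mb. The bin from 88 Mb, with 13 tested genes, holds Olfr1167, Olfr1170, Olfr1176 and Olfr1177-ps. In C10 against CRS the bins from 89 and 90 Mb had medians of 0.00 and 0.00, with 8 of 16 and 3 of 6 genes above 0.

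Among pairs with both members tested, the 3 most alike in coding sequence had levels of the same order in 2 of 3 cases. Their counts are uncertain, with 75.8% to 89.9% of 50-base stretches unique. Other tested members had less, among them Olfr987 (62.8%) and Olfr988 (66.2%). Olfr1028 and Olfr1029, 98.0% identical, had medians of 1.83 and 2.82 CPM in CON, 2.17 and 2.62 CPM in CRS and 2.68 and 2.84 CPM in C10. Olfr1034 and Olfr1036, also 98.0% identical, had medians of 7.65 and 5.28 CPM in CON, 10.5 and 6.57 CPM in CRS, and 9.80 and 7.35 CPM in C10. Olfr1034 overlaps Olfr1035-ps1. The third pair, Olfr1057 and Olfr1062 (98.2%), differed, with medians in C10 of 2.32 and 0.530 CPM. In all 6 genes the groups overlapped, and the part of reads that fit both copies was not tested.

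Genes of the olfactory neurons give the setting of these values. Omp had 1241, 2041 and 2843 CPM as lowest, median and highest in CON, 1374, 2345 and 3490 CPM in CRS, and 1605, 2266 and 3026 CPM in C10, and its log2 fold change in C10 against CON was 0.12 ± 0.25. Of the 14 listed genes of mature olfactory neurons, 14 lay above 0 in C10 against CON, with a median of 0.27 and 0 called. Signal transduction genes, Gnal, Adcy3 and Cnga2 among them, had 13 of 14 above 0 with a median of 0.16 and 0 called. For receptor expression and choice, the list with Lhx2, Ebf1 and the receptor transporters Rtp1 and Rtp2, 13 of 15 were above 0 with a median of 0.25 and 0 called.

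Relative to Omp the cluster stood higher in C10, a ratio chosen after the values were seen and given with no test. Its summed CPM was 12.5% to 18.3% of the Omp CPM in CON, 14.7% to 18.4% in CRS and 19.4% to 21.9% in C10, so the 6 C10 libraries lay above the 12 others. The other odorant receptors showed the same, with 63.0% to 84.8% in CON, 71.6% to 80.01% in CRS and 91.9% to 104% in C10. Against the summed CPM of the mature neuron list, the cluster's share was 4.65% to 6.16% in CON, 5.17% to 6.29% in CRS and 6.61% to 7.29% in C10.

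Genes of immature neurons and their precursors lay on the same side. All 8 listed genes lay above 0 in C10 against CON with a median of 0.98, and 1 was called, Neurod1, a transcription factor of neuronal precursors. Neurod1 had 1.39, 1.74 and 2.73 CPM as lowest, median and highest in CON, 1.86, 2.63 and 5.26 CPM in CRS, and 2.80, 7.35 and 9.06 CPM in C10. It rose by 1.80 ± 0.30 on the log2 scale (edgeR adjusted p = 0.018), and the call ended in 7 of 18 cases of a library left out (adjusted p = 0.0529 to 0.061). Gap43, the growth-associated protein of young neurons, had medians of 35.9, 38.5 and 66.5 CPM in CON, CRS and C10 (C10 against CON 1.00 ± 0.30, edgeR adjusted p = 0.174). Summed over the list, the level was 111 to 265 CPM in CON, 133 to 375 CPM in CRS and 241 to 423 CPM in C10. The part of these genes in the receptor values was not tested. With the level of the mature neuron list as a covariate, the cluster's median in C10 against CON was 0.21 with 82 of 112 above 0. The other odorant receptors had a median of 0.23 with 382 of 520 above 0. In that fit 2 receptors of the cluster were called, Olfr1167 and Olfr1177-ps, beside 0 of the other odorant receptors and 115 of all 18291 genes.

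Markers of other cell types of the mucosa are given for comparison. The 6 sustentacular and Bowman gland genes summed to 7746 to 12317 CPM in CON, 7250.4 to 15300 CPM in CRS and 9383 to 16176 CPM in C10, with 5 of 6 above 0 in C10 against CON and 0 called. The 5 respiratory ciliated genes summed to 435 to 646 CPM in CON, 282 to 450.0 CPM in CRS and 311 to 699 CPM in C10. In CRS against CON 0 of these 5 were above 0 (median -0.43, 0 called), and in C10 against CON 2 of 5 were above 0 and 0 were called. The 3 nasal gland genes measured summed to 10095 to 28561 CPM in CON, 13560.0 to 53095 CPM in CRS and 15524 to 34705 CPM in C10, with 3 of 3 above 0 in C10 against CON and 0 called. The summed levels of each list overlapped between the 3 groups, and their part in the receptor values was not tested.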

How the data were processed

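The 18 libraries were made from poly(A)-selected RNA of mouse nasal mucosa, per the labels' protocols. The deposited count table holds read counts per gene as whole numbers; the submitters' processing notes name the build mm10, while the sources used here name no aligner, counter, annotation release or strand setting. The coordinates and exon lengths of all 227 members equal GENCODE M21. The FPKM values were made by the authors from these counts, with library sizes 0.877 to 1.081 times the totals, and were used to compare levels between genes. Because a read that fits several receptors may be dropped or assigned, counts of near-identical genes are less certain.

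In R 4.3.3, edgeR 4.0.16 was run on all 54532 genes: filterByExpr by group kept 18291, TMM factors scaled CPM, and quasi-likelihood F-tests (two-sided) used all 18 libraries with 1 mean per group. Benjamini-Hochberg values under 0.05 over all genes tested count as called. An SE is the size of the log2 fold change over the square root of F. The code was tested on simulated data. Alternatives were RLE factors, library size set to all odorant receptor counts, a block for replicate number, a fit of only 2 groups, no filter or one at 1 CPM in 6 libraries, the mature neuron level as covariate, DESeq2 1.42.0, limma 3.58.1 (voom with quality weights, and log2 of FPKM plus 1 or 0.1), and leaving out libraries.

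The members, gene lists and tests were chosen with earlier results of these data known. Named genes are the 10 members of highest mean FPKM, per comparison the 3 of smallest p above 0 and the 3 below, called members, the 3 most alike tested pairs, the 5 tested members of widest and 3 of narrowest spread, and Omp, Gnal, Adcy3, Cnga2, Rtp1, Rtp2, Lhx2, Ebf1, Gap43 and called list genes. Pairs were ranked by coding-base identity from GENCODE M21, since protein sequences were not used here. RefSeq promoter windows matched 181 members by symbol, but only 29 had a start within 100 bases of the gene start in the files, so none is shown. MOR names come from RefSeq (GRCm38.p6). Same-numbered libraries were not treated as pairs in the main fit. Their deviations correlated above 0.1 in 4 of 6 pairs of C10 against CRS, 3 of 6 of CRS against CON and 1 of 6 of C10 against CON. These values do not settle whether the numbers mark pairs, so a fit with a replicate block is also given.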

Additional observations from a re-analysis of the deposited data

Results flagged for a closer look

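Of 120 groups of 6 libraries checked for a library far from the others (Dixon's test), 7 stood out, where chance gives about 6 at this level, or 1 in 20. Among single receptors, Olfr988 was at 1.81 CPM in CRS 6 against 0.302 to 0.68 CPM in the other CRS libraries. Olfr1216 was at 4.64 CPM in CRS 2 against 1.03 to 2.16 CPM in the others of CRS. In C10 4 Olfr1246 had 1.28 CPM against 0.241 to 0.56 CPM in the rest of C10. Olfr1015 had 5.68 CPM in CON 6 against 0.834 to 2.16 CPM in the other CON libraries. The cluster's share of odorant receptor counts was 17.9% in CON 3 against 16.5% to 16.9% in the rest of CON, and 18.7% in CRS 4 against 16.9% to 17.3% in the rest of CRS. Its summed level relative to Omp was lowest in C10 5, at 19.4% against 21.1% to 21.9% in the other C10 libraries.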

How the results depend on the processing

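Of the 31 named fold changes under 920 alternatives, 899 kept their direction and 21 reversed. Scaling to all odorant receptor counts shifted the median of all genes by -0.612 in C10 against CON. The shift was -0.424 in C10 against CRS and -0.192 in CRS against CON. For C10 against CON the scaling gave a cluster median of 0.0074, with 0 called receptors and 0 called of all genes. Reversed values were -0.157 (Olfr1176), -0.138 (Olfr1025-ps1), -0.212 (Olfr1032), -0.428 (Olfr1019), -0.160 (Olfr1020), -0.0588 (Olfr152) and -0.419 (Omp). The covariate gave -0.0455 (Olfr1025-ps1), -0.0535 (Olfr1032), -0.278 (Olfr1019) and -0.197 (Omp). Olfr1019 was at -0.011 with the replicate block and -0.236 with voom; Olfr1224-ps1 was at 0.359 with voom and 0.00974 with log2(FPKM + 0.1). Olfr1143 in C10 against CRS was at 0.0698 without CRS 2 and 5.

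Receptors called in C10 against CON numbered 1 in the main analysis, 0 without a filter, 2 with the covariate, 3 with DESeq2 (Olfr988, Olfr1167 and Olfr1177-ps) and 3 with voom (Olfr1112, Olfr1167 and Olfr1177-ps). In C10 against CRS, where the main count was 0, the covariate gave 4, DESeq2 2 and limma on FPKM 1 with either pseudocount. Leaving out 1 library gave 0 to 1 in both of these comparisons and 0 in CRS against CON. Medians of the cluster then ran from 0.0902 (without CRS 2) to 0.373 (without CRS 1) in CRS against CON, from 0.136 (without CRS 1) to 0.367 (without CRS 2) in C10 against CRS, and from 0.376 (without CON 5) to 0.626 (without CON 6) in C10 against CON; they also moved by over 1.5 times without CON 5 (0.0983) or CON 6 (0.346) in CRS against CON and without C10 6 (0.16) in C10 against CRS. Olfr1019 ran from -0.135 to 0.292, Olfr1015 from -0.444 to 0.333 and Omp from -0.00373 to 0.222. Without its member of highest count, Olfr1025-ps1, the cluster's share of odorant receptor counts was 16.3% in CON and 16.7% in C10. From the FPKM of all members it was 17.8% and 18.1%. Over all genes, called counts in C10 against CON were 29, and 0 scaled to receptor counts, 17 without a filter, 12 with the block, 115 with the covariate, 318 with DESeq2, 252 with voom and 3 to 110 with a library left out; in C10 against CRS 15, and 0 scaled to receptor counts, 400 with the covariate, 350 with DESeq2, 548 with voom and 7 to 81 with a library left out; and in CRS against CON 1, 940 with voom and 0 to 994. The causes of these changes were not tested.

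Replicate numbers recur in the 3 groups, but same-numbered libraries correlated from -0.574 to 0.519 in their deviations. The correlation was above 0.1 in 4 of 6 pairs of C10 against CRS, 3 of 6 of CRS against CON and 1 of 6 of C10 against CON, and the own number was the best match in 3, 1 and 1 pairs. With the number as a replicate block, 0 receptors were called in C10 against CON, where 12 of all genes were called. The 115 receptors below the filter had a median of 31 counts over 18 libraries. The part of sequencing depth in this was not tested.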
